A study of Mus musculus with 6 samples.

Results

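The 10 genes described here encode the carnitine shuttle and several enzymes of mitochondrial fatty acid beta-oxidation: Cpt1a, Slc25a20, Cpt2, Acadvl, Acadl, Acadm, Acads, Hadhb, Hadh and Acaa2. They form a group by function, and the rule uses no measured value, although it was written with earlier results of these data known. Every probe set annotated to exactly 1 of these symbols was taken, which gave 16 of the 28898 probe sets with 1 symbol and 10 of 17097 genes. Where a gene had several probe sets, the one brightest on average across the 6 arrays gave its main value. The main probe sets of all 10 genes passed the limit for dim signal, a log2 value of 2.66, and entered the test. Livers of Nrg4 knockout mice were set against livers of wild-type mice, with 3 arrays for each genotype and a separate pool of liver RNA on each array. Nrg4 encodes neuregulin 4, a hormone-like factor of brown fat that binds ErbB receptors. Both genotypes are labelled C57BL/6, began a high-fat diet at 3 months of age, ate it for 8 weeks and were harvested randomly fed. The making of the Nrg4 allele and the number of mice in a pool are not stated in the sources read for this text, so errors and p-values describe the spread between pools.

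Beta-oxidation breaks fatty acids down in the mitochondrial matrix, and in the liver it supplies energy and the acetyl-CoA for ketone bodies. Long-chain acyl groups cross the mitochondrial membranes as carnitine esters, and each turn of the cycle then runs through a dehydrogenation, a hydration, a further dehydrogenation and a thiolytic cleavage. Several of these genes are known targets of PPAR alpha, the nuclear receptor that fatty acids activate in the fasted liver. Malonyl-CoA, the building block of fatty acid synthesis, inhibits the entry step, so that synthesis and oxidation are regulated in opposite directions at the level of enzyme activity. Arrays measure messenger RNA and not that activity.

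The labels of the arrays were checked first on Nrg4, which had log2 values of 2.56, 2.43 and 2.64 in the knockout arrays, against 4.94, 4.79 and 4.77 in the wild-type arrays. The dim limit was not reached by any of the 3 knockout arrays, so only a bound can be given: with that limit in their place the signal was at least 4.51-fold lower in the knockout (limma adjusted p = 4.76e-05 on the values as measured). The labels do not say which exons were removed, so the probe set may or may not cover them. Array medians were 2.98 to 3.04 in the knockout and 2.99 to 3.00 in wild type. The mean difference between 5' and 3' control probe sets for Actb and Gapdh, which drops as RNA degrades, was -1.31 in knockout replicate 1, -0.70 and -0.65 in the other knockout arrays, and -0.96 to -0.78 in wild type. The 5' control for 18S ribosomal RNA read 5.61 to 6.71 in the knockout, against 8.12 to 8.80 in wild type. Hepatocyte markers had a median log2 change of 0.0028 over 10 genes, none past limma's test or at an unadjusted p under 0.05, and Alb, the serum albumin gene, stood at 0.03. Markers of other liver cells had higher values in the knockout: median changes were 0.34 over 10 macrophage genes, 0.29 over 7 sinusoidal endothelial genes and 0.39 over 7 stellate cell genes. None of these passed limma's test, and 4, 3 and 4 of them were higher at an unadjusted p under 0.05. Of all genes, 7.36% were. The endothelial gene Lyve1 passed with a variance trend, with array weights and without knockout replicate 1 (limma adjusted p = 0.0273, 0.0214 and 0.0246), and the macrophage gene Adgre1 passed with array weights (limma adjusted p = 0.0455). The mean deviation of the macrophage markers was -0.31, 0.44 and 0.50 in knockout replicates 1, 2 and 3, against -0.34 to -0.11 in wild type. For the endothelial markers it was -0.01, 0.22 and 0.35 in the knockout replicates, against -0.33 to -0.10 in wild type. For the stellate cell markers it was 0.12 to 0.27 in the knockout and -0.25 to -0.05 in wild type. Krt7 and Krt19 of bile ducts, Acta1 and Tnnt3 of muscle and Adipoq, Lep and Cox7a1 of fat lay below the dim limit in these livers. The 2 bile duct, 4 muscle and 2 fat markers above the limit had median log2 changes of 0.20, 0.03 and -0.07. In whole liver, fewer cells of a type and less RNA per cell cannot be told apart. The part of cell makeup, RNA integrity and ribosomal RNA in the values below was not tested.

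Promoter windows of 4 members are shown. The carnitine shuttle genes were chosen because they hold the highest and the lowest change among the 10 genes. They also hold the single member whose genotypes did not overlap. Acadm was chosen because it holds the only match to the site of estrogen-related receptors among the 9 members whose windows were searched. Each window runs from 250 bases before to 50 after the RefSeq start site (GRCm38.p6) and is written 5′ to 3′ on the gene's strand. Capitals mark matches on either strand to the nuclear receptor half-site AGGTCA, the GC box GGGCGG, the CCAAT box CCAAT, the TATA box TATAAA and the half-site TGACG of cAMP-responsive elements. Cpt1a lies at chr19:3323051-3323350 on the plus strand, Cpt2 at chr4:107923540-107923839 on the minus strand, Slc25a20 at chr9:108661886-108662185 on the plus strand and Acadm at chr3:153944594-153944893 on the minus strand.
Cpt1a: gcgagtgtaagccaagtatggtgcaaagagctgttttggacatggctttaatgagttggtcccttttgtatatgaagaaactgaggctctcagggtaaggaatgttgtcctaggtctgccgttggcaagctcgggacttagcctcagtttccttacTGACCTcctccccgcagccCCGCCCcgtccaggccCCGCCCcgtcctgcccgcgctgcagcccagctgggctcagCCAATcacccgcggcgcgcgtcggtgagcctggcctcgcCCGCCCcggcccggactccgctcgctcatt
Cpt2: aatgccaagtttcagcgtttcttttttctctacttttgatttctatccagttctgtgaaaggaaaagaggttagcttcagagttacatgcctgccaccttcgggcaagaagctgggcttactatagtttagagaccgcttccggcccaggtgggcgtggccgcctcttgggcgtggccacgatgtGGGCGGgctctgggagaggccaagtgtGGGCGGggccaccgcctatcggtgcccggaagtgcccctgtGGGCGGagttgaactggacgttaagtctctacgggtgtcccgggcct
Slc25a20: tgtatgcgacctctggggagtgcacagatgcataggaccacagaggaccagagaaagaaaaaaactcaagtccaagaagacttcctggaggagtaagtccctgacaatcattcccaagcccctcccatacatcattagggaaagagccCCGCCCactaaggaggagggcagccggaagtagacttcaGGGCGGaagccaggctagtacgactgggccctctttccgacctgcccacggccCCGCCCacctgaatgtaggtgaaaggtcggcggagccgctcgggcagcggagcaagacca
Acadm: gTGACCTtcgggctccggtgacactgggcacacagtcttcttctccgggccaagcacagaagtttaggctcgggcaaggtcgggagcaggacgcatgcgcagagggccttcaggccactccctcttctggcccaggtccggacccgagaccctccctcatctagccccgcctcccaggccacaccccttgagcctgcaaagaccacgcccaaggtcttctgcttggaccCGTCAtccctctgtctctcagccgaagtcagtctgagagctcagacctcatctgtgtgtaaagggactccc
The table holds windows of 9 members, Acaa2 aside, and the GC box occurred in 7 of them, against 35.66% of the 32851 windows of the same length in the RefSeq table. Of these 9 windows, 8 had a GC content above the median of all windows (57.3% to 70.3%, against 52.7%), and the part of base composition in the count of GC boxes was not tested. It stood 3 times in each of the shuttle genes' windows. The half-site AGGTCA was found in 3 of 9, in Cpt1a, Acadm and Acadvl, against 16.26% of all windows. In Acadm this match is part of AAGGTCA, the extended half-site of estrogen-related receptors, which 4.72% of all windows hold. The direct repeat AGGTCANAGGTCA bound by PPAR alpha with RXR was in none of the 9 and in 0.04% of all windows. The CCAAT box was in 2 of 9 member windows and 37.41% of all, the site TGACG in 1 of 9 and 20.81%, and the TATA box in 0 of 9 and 13.62%. These are matches of letters and not shown to be binding sites, and the windows leave out sites farther away or within introns. The windows of Hadhb and its divergent neighbour Hadha, which encodes the alpha subunit of the same protein, overlapped by 228 bases. Hadha was not analysed here.

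Messenger RNA of these 10 genes differed little between the genotypes. The log2 changes, knockout minus wild type, ran from -0.14 for Slc25a20 to 0.11 for Cpt1a, that is from 0.909-fold to 1.08-fold, with a median of -0.03. None of the 10 genes passed limma's test at adjusted p under 0.05, where 0.0401% of the 12466 genes tested did. None of their 15 probe sets above the dim limit passed when every probe set was tested on its own, where 0.0368% of all did. Likewise 0 of 10 had an unadjusted p under 0.05, where 9.55% of all genes did. The adjusted p-values lay between 0.693 and 0.968. A miss of the threshold does not show that the levels were alike, so the intervals matter here. For 9 of the 10 genes the 95% interval of the main probe set stayed within 1.25-fold in either direction. The exception was Slc25a20, whose interval reached down to 0.777-fold. This count depends on the bound chosen. Intervals came near it for Cpt1a (up to 1.24-fold), Cpt2 (up to 1.22-fold), Hadh (up to 1.20-fold) and Acadvl (down to 0.811-fold). Intervals of further probe sets went beyond the 1.25-fold bound for Hadh (up to 1.254-fold), Hadhb (down to 0.749-fold) and Acaa2 (from 0.694-fold to 1.287-fold). The share of all genes with an interval inside the bound was not computed. By value 3 genes were higher in the knockout (Cpt1a, Cpt2 and Hadh) and 7 lower, while 63.4% of all genes tested had a higher value and their median log2 change was 0.04. Over all genes tested 69.4% lay within 0.15 of no change on the log2 scale. That limit lies just beyond the largest change among these 10, so all of them fall inside it by that choice. Changes this small are common on these arrays.

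The pools of one genotype gave closely similar values for these genes. The within-genotype SD was 0.03 to 0.11 on the log2 scale with a median of 0.05, and all 10 genes lay under the median SD of all genes tested, 0.13. The 10 genes had bright mean signals, 7.835 to 11.351. Their SD was not compared with that of other genes of like signal. Limma draws each gene's variance towards that of the other genes, and this gave standard errors of 0.08 to 0.10 that are wider than most members' own spread implies. With the prior variance allowed to follow the mean signal, the standard errors were 0.05 to 0.08 and still no member had an unadjusted p under 0.05. The lowest unadjusted p in that fit was 0.0879, for Cpt1a, with a limma adjusted p of 0.559.

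**Figure D1:**
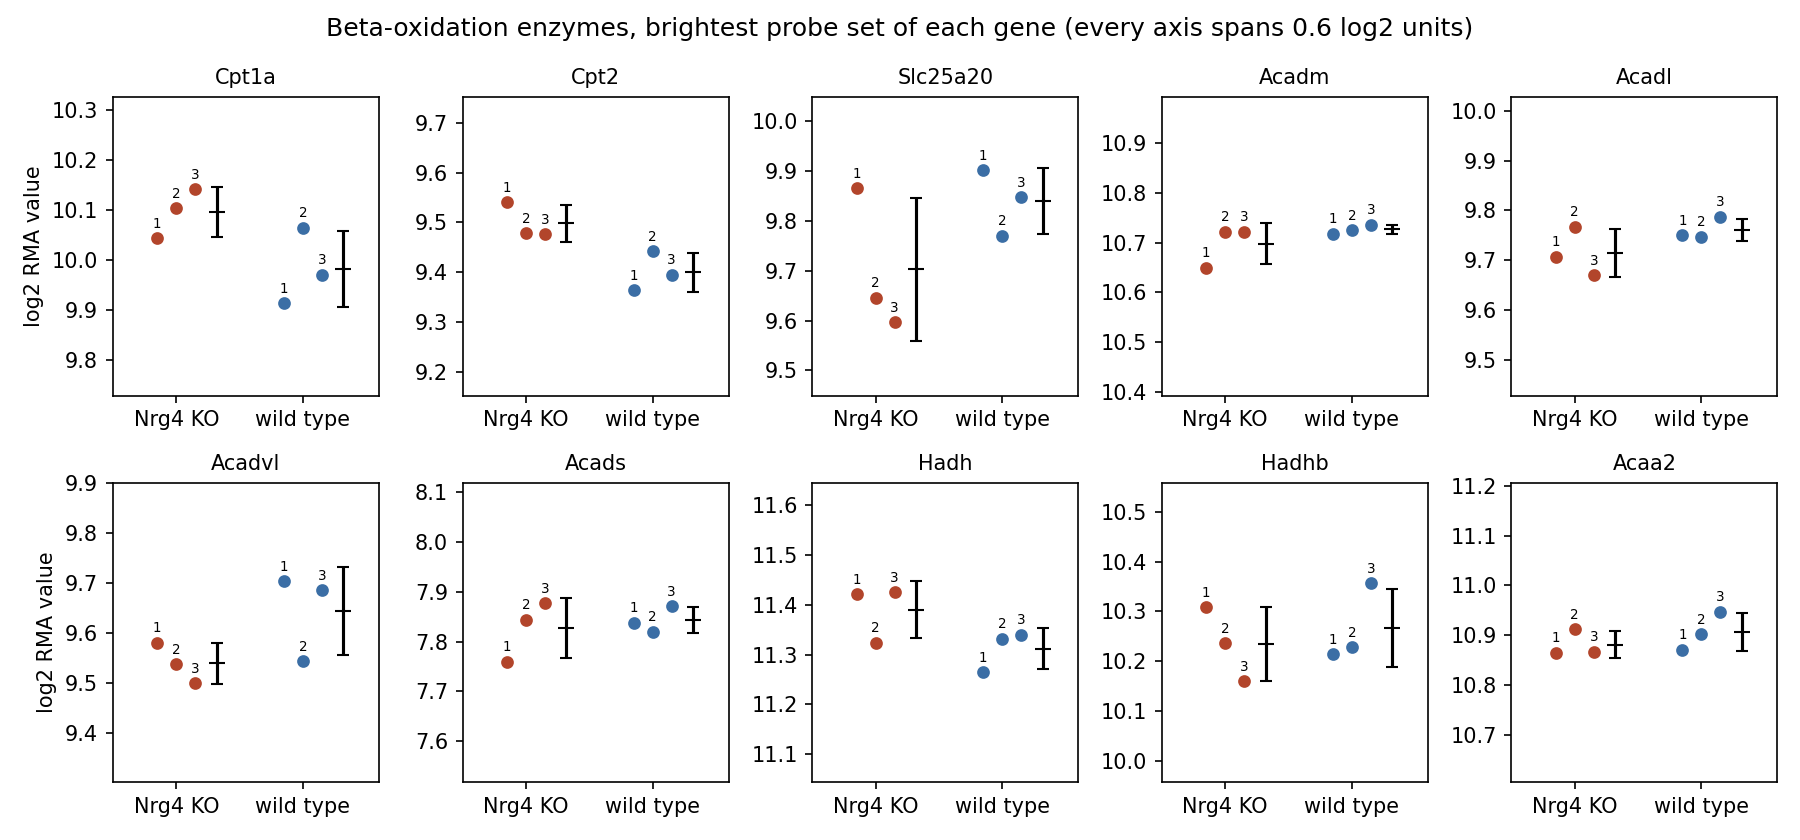
Log2 RMA value (y axis, spanning 0.6 in every panel) of the main probe set of each enzyme in the Nrg4 knockout arrays (left, red) and the wild-type arrays (right, blue), with replicate numbers at the points and the mean and SD in black. The genotypes overlap in 9 of the 10 panels, and in Cpt2 the knockout arrays lie above the wild-type arrays.

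The carnitine shuttle was described first. Cpt1a, the liver form of carnitine palmitoyltransferase 1 and the step that malonyl-CoA inhibits, had log2 values of 10.04, 10.10 and 10.14 in the knockout arrays, against 9.91, 10.06 and 9.97 in the wild-type arrays. Knockout replicate 1 lay below wild-type replicate 2, so the genotypes overlapped narrowly. The log2 change was 0.11 (SE 0.09, 95% interval -0.08 to 0.31, limma adjusted p = 0.703), or 1.08-fold. Cpt2, which returns the acyl group from carnitine to coenzyme A at the inner membrane, had values of 9.54, 9.48 and 9.48 in the knockout, against 9.36, 9.44 and 9.40 in wild type. All knockout arrays lay above all wild-type arrays, the only such case among the 10 members, where 15.6% of all genes tested did not overlap, 11.7% with the knockout above and 3.92% with it below. The log2 change of 0.10 (SE 0.08, 95% interval -0.09 to 0.28) had a limma adjusted p of 0.731. Slc25a20, the carnitine-acylcarnitine translocase between these enzymes, had values of 9.87, 9.65 and 9.60 in the knockout, against 9.90, 9.77 and 9.85 in wild type. Knockout replicates 2 and 3 were lower than every wild-type array, while knockout replicate 1 stood inside the wild-type range. The log2 change was -0.14 (SE 0.10, 95% interval -0.36 to 0.09, limma adjusted p = 0.693), and without knockout replicate 1 it was -0.22 (limma adjusted p = 0.288). The second probe set of Slc25a20 read 8.99, 8.90 and 8.86 in the knockout, against 9.00, 8.91 and 8.91 in wild type. Its log2 change was -0.02 (95% interval -0.22 to 0.18), and its genotypes overlapped. Slc25a20 lies on chromosome 9, as Nrg4 does, over 30 Mb away, and the other 9 genes lie on other chromosomes.

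The acyl-CoA dehydrogenases carry out the first step of the cycle, each on acyl groups of a different length. Acadvl, for very long chains, had log2 values of 9.58, 9.54 and 9.50 in the knockout arrays, against 9.70, 9.54 and 9.69 in the wild-type arrays. Wild-type replicate 2 lay within the knockout range and the other wild-type arrays above it, with a log2 change of -0.11 (SE 0.09, 95% interval -0.30 to 0.09, limma adjusted p = 0.731). Acadl, for long chains, had values of 9.71, 9.77 and 9.67 in the knockout, against 9.75, 9.75 and 9.79 in wild type, and its log2 change was -0.05 (95% interval -0.23 to 0.14). Acadm, for medium chains, had the lowest within-genotype SD of the 10 genes, 0.03. Its values were 10.65, 10.72 and 10.72 in the knockout, against 10.72, 10.73 and 10.74 in wild type, a log2 change of -0.03 with an interval from 0.865-fold to 1.11-fold. Knockout replicate 1 was the lowest array for Acadm and the rest lay within a narrow band. Acads, for short chains, had values of 7.76, 7.84 and 7.88 in the knockout, against 7.84, 7.82 and 7.87 in wild type. Its log2 change of -0.02 (95% interval -0.20 to 0.17) turned to 0.02 without knockout replicate 1, again the lowest array. All 4 dehydrogenases thus had lower values in the knockout by 0.11 or less on the log2 scale, and the genotypes overlapped in each.

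Of the later steps, the further dehydrogenation and the thiolytic cleavage were measured, on 3 genes. The hydration has no gene of its own among the members. Hadhb encodes the beta subunit of the trifunctional protein, which carries the thiolase for long chains, and had log2 values of 10.31, 10.24 and 10.16 in the knockout arrays, against 10.21, 10.23 and 10.36 in the wild-type arrays. The highest array was wild-type replicate 3 and the lowest knockout replicate 3, with a log2 change of -0.03 (95% interval -0.23 to 0.17, limma adjusted p = 0.936). The change was 0.01 without wild-type replicate 3 and 0.0065 without knockout replicate 3. Hadh, the 3-hydroxyacyl-CoA dehydrogenase for medium and short chains, had values of 11.42, 11.32 and 11.43 in the knockout, against 11.26, 11.33 and 11.34 in wild type. Knockout replicate 2 was within the wild-type range, and the log2 change was 0.08 (95% interval -0.11 to 0.27, limma adjusted p = 0.804). Acaa2, the matrix thiolase that releases acetyl-CoA, had values of 10.87, 10.91 and 10.87 in the knockout, against 10.87, 10.90 and 10.95 in wild type, a log2 change of -0.03 (95% interval -0.21 to 0.16). The genotypes covered nearly the same range for Acaa2.

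**Figure D2:**
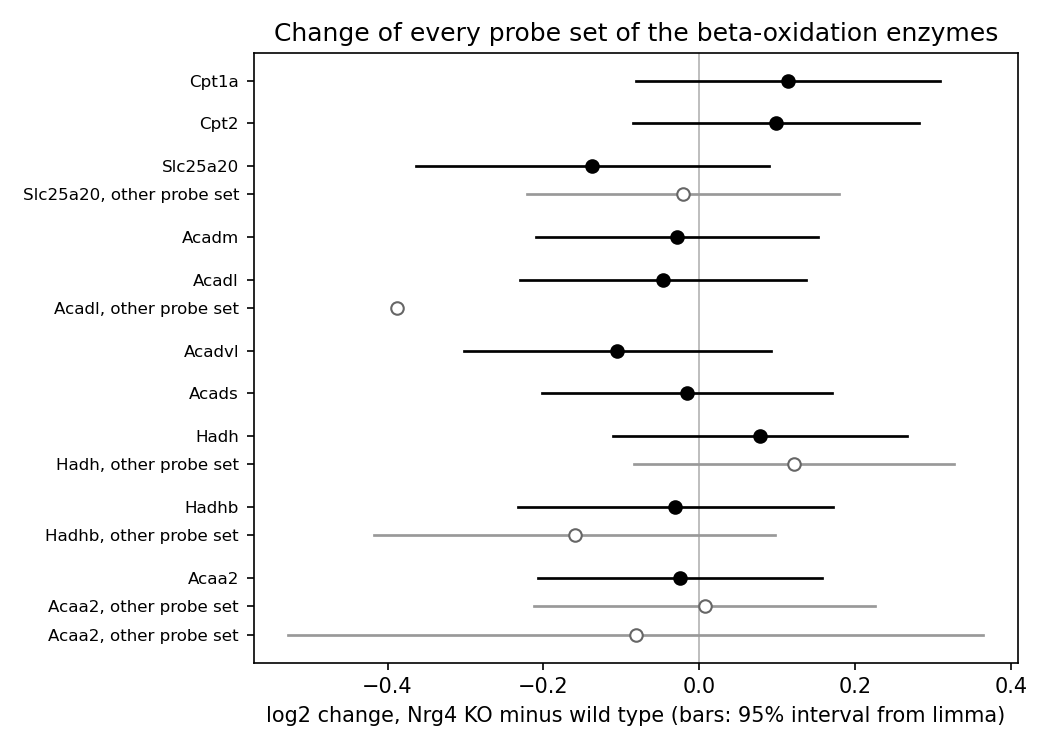
Log2 change, Nrg4 knockout minus wild type (x axis), of all 16 probe sets of the 10 enzymes, with 95% intervals from limma over 3 arrays per genotype; filled points are the main probe sets and open points the others. Every interval drawn includes 0, and the second Acadl probe set, at -0.39, was below the dim limit and has no interval.

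For 5 of the 10 genes a single probe set was present, and the other 5 had 1 or 2 further ones. The second probe set of Hadh read 10.25, 10.21 and 10.26 in the knockout, against 10.02, 10.14 and 10.20 in wild type. The knockout arrays lay above the wild-type arrays there, with a log2 change of 0.12 (95% interval -0.08 to 0.33, limma adjusted p = 0.705 over every probe set). The main probe set of Hadh is of the kind whose name marks probes that can also match other sequences, and the name of the second carries no such mark. Hadhb's second probe set read 4.63 ± 0.20 in the knockout and 4.79 ± 0.02 in wild type (SD, n = 3), with a log2 change of -0.16 and an interval from -0.42 to 0.10. Acadl's second probe set read 2.26, 1.95 and 1.90 in the knockout, against 2.31, 2.44 and 2.52 in wild type. All its knockout arrays were lower, by 0.39 on average, but the signal was under the dim limit and was not tested, and the main probe set of Acadl did not show a change of this size. Averaged over both probe sets, Acadl had a log2 change of -0.22 (limma adjusted p = 0.437).

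Acaa2 had 3 probe sets that differed in how they read knockout replicate 1. The second read 10.33, 10.56 and 10.54 in the knockout, against 10.46, 10.46 and 10.49 in wild type. The third read 9.22, 9.94 and 9.99 in the knockout, against 9.62, 9.91 and 9.87 in wild type. Knockout replicate 1 was the lowest array in both, and in the third it lay 0.40 below the next lowest array. The brightest probe set of the gene read 10.87 on that array, also its lowest, but by only 0.002. It spanned only 0.08 over all 6 arrays. Knockout replicate 1 also had the lowest difference between 5' and 3' control signals, -1.31, and whether this bears on the low value was not tested. The log2 change of the second probe set was 0.0070 (95% interval -0.21 to 0.23) and that of the third was -0.08 (95% interval -0.53 to 0.36).

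**Figure D3:**
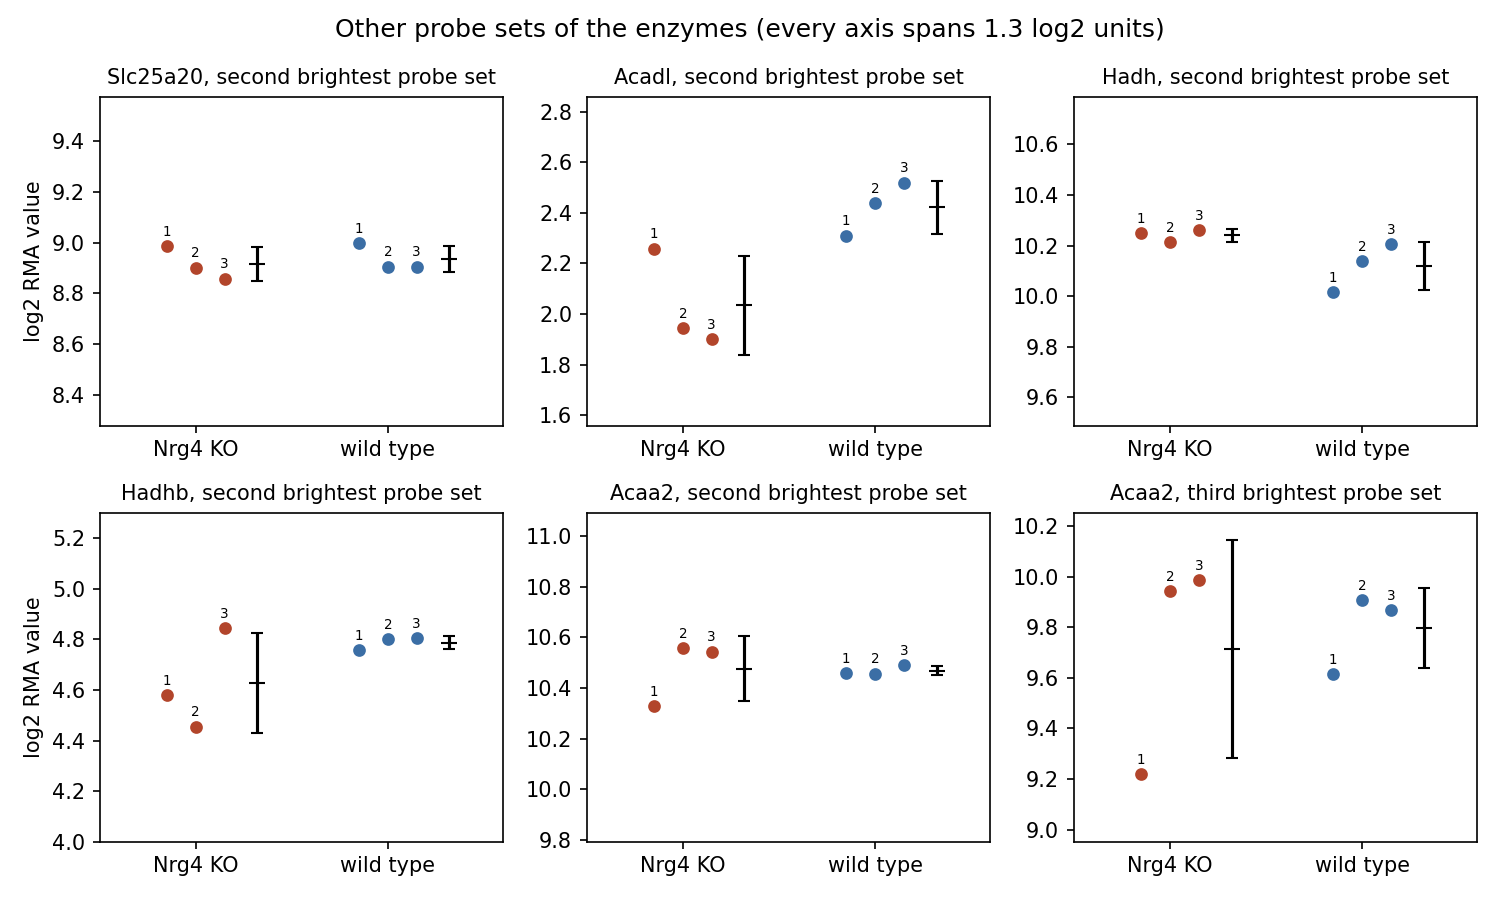
Log2 RMA value (y axis, spanning 1.3 in every panel) of the 6 further probe sets of the enzymes in the Nrg4 knockout arrays (left, red) and the wild-type arrays (right, blue), with replicate numbers, means and SD. Knockout replicate 1 stands low at 9.22 in the last Acaa2 panel, and the genotypes do not overlap for the second Hadh and Acadl probe sets.

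No array was high or low for all of the enzymes. The highest of the 6 arrays was wild-type replicate 3 for 4 genes, knockout replicate 3 for 3, wild-type replicate 1 for 2 and knockout replicate 1 for 1. The lowest was knockout replicate 3 for 4 genes, and knockout replicate 1 and wild-type replicate 1 for 3 each. The mean deviation of the 10 genes from their own averages was 0.01, -0.0062 and -0.02 in knockout replicates 1, 2 and 3, against -0.0096, -0.0058 and 0.03 in the wild-type replicates. The arrays of the genotypes thus overlapped in this mean.

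Other genes of the pathway were examined on lists of known function, drawn up with earlier results of these data known. Of 23 further mitochondrial beta-oxidation genes tested, 13 had a higher and 10 a lower value in the knockout. The median log2 change was 0.03, and -0.0005 with array weights and -0.0074 without wild-type replicate 1. None passed limma's test. At an unadjusted p under 0.05 there were 2 higher and 3 lower, where 7.36% and 2.18% of all genes were. Acot2, a mitochondrial thioesterase that frees fatty acids from coenzyme A, had log2 values of 7.92, 7.93 and 7.85 in the knockout, against 8.46, 8.52 and 8.26 in wild type. All knockout arrays lay below, with a log2 change of -0.51 (SE 0.10, limma adjusted p = 0.143), while its second probe set, with a mean log2 value of 3.56, stood at -0.02. Acot2 passed with a variance trend (limma adjusted p = 0.0387) and with array weights (limma adjusted p = 0.0468). Crat, carnitine acetyltransferase, had values of 5.56, 5.59 and 5.45 in the knockout, against 5.86, 5.87 and 5.80 in wild type, a log2 change of -0.31 (limma adjusted p = 0.321), with 0.12 at its second probe set, close to the dim limit. Slc22a5, which encodes the plasma membrane carnitine carrier OCTN2, had values of 7.56, 7.45 and 7.43 in the knockout, against 7.64, 7.68 and 7.88 in wild type, a log2 change of -0.25 (limma adjusted p = 0.467). Its second probe set, also close to the dim limit, stood at -0.40. Hadha, Acad10, Etfb, Acsl1 and Mcee had no probe set with 1 symbol and were not analysed here.

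Of the genes for making and exporting ketone bodies, 3 were tested. Acat1, the mitochondrial acetoacetyl-CoA thiolase, had a log2 change of 0.02 (95% interval -0.16 to 0.20), and the monocarboxylate carriers Slc16a7 and Slc16a1 stood at 0.10 and 0.0064. None of the 3 had an unadjusted limma p under 0.05. Of 14 regulators 9 had a higher and 5 a lower value, with a median log2 change of 0.11 that was 0.037 with a gene's probe sets averaged and 0.050 with every probe set on its own. Lpin2, a lipin phosphatase, stood at -0.05 at its main probe set and at -0.43 and -0.42 at the others. None passed the test, and 1 was higher and 1 lower at an unadjusted p under 0.05. Esrrg, an estrogen-related receptor, had log2 values of 3.93, 3.54 and 3.95 in the knockout, against 4.65, 4.48 and 4.46 in wild type, a change of -0.72 (limma adjusted p = 0.126, and 0.0486 with array weights). The brightest probe set of Ppara stood at 0.34 (limma adjusted p = 0.379) and its others at -0.13 and -0.35, so the gene's probe sets disagreed in direction. Acaca, acetyl-CoA carboxylase 1 that makes malonyl-CoA, stood at 0.19 (limma adjusted p = 0.523).

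PPAR alpha targets outside the mitochondrial cycle had lower values in the knockout in 14 of 15 genes (median log2 change -0.17), where 36.6% of all genes tested had a lower value. The median was -0.11 with a gene's probe sets averaged. Abcd2, a peroxisomal transporter, stood at -0.24 at its main probe set and at 0.32 and 0.28 at its other probe sets above the dim limit. None passed limma's test, and 4 were lower and 0 higher at an unadjusted p under 0.05. Acot1, a cytosolic thioesterase, had log2 values of 8.12, 8.10 and 7.80 in the knockout, against 8.82, 8.62 and 8.60 in wild type. Acot3, a peroxisomal thioesterase, had values of 8.12, 7.66 and 7.98 in the knockout, against 8.50, 8.62 and 8.58 in wild type. The knockout arrays of both lay below the wild-type arrays, with log2 changes of -0.67 and -0.65 (limma adjusted p = 0.11 and 0.145). Acot1, Acot2 and Acot3 are close copies of each other, and probes for one may read the others, so their changes may not be separate measurements. Acot1 passed with a variance trend (limma adjusted p = 0.0306) and with array weights, and Acot3 with array weights alone (limma adjusted p = 0.0448). Ehhadh, the bifunctional enzyme of peroxisomal beta-oxidation, stood at -0.21 (95% interval -0.41 to -0.02, limma adjusted p = 0.486). Smaller values in this list included Fabp1 at -0.03, Cyp4a10 at -0.07 and Abcd3 at -0.04. The second probe set of Fabp1, with a mean log2 value of 11.395, stood at -0.17. As a comparator from the same compartment, 13 of 15 citric acid cycle enzymes had a higher and 2 a lower value, with a median log2 change of 0.09. None passed the test, and 1 was higher and 1 lower at an unadjusted p under 0.05. Suclg2 stood at 0.25, Sdhd at -0.27 and Sdhc at 0.18 (limma adjusted p = 0.386, 0.423 and 0.597). These lists differ in their medians, and the differences between lists were not tested.

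**Figure D4:**
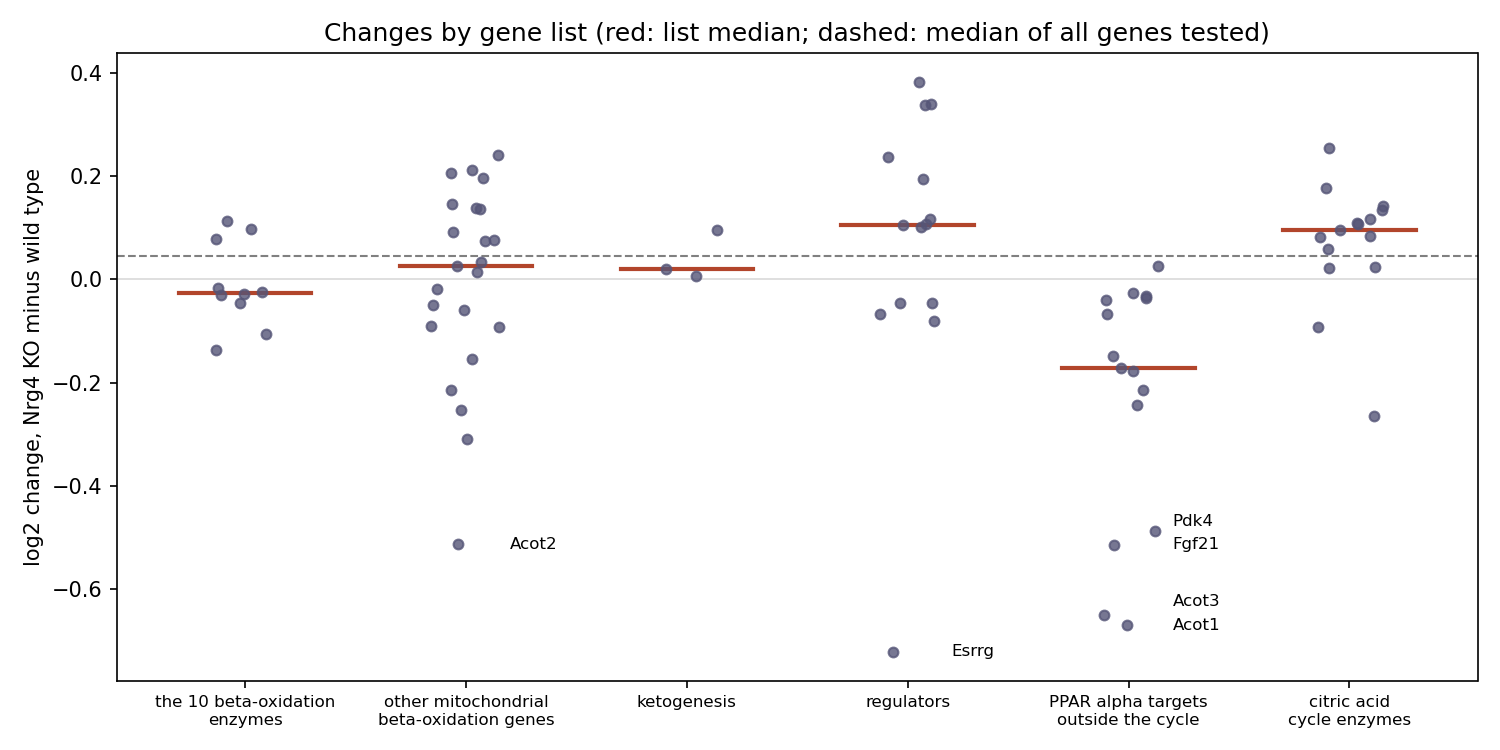
Log2 change, Nrg4 knockout minus wild type (y axis), of each gene tested in the 10 beta-oxidation enzymes and 5 related lists; each point is a gene's main probe set, red lines are list medians and the dashed line is the median of all genes tested, 0.04. The 10 enzymes lie between -0.14 and 0.11, and the named genes are those with a change over 0.45 in size.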

How the data were processed

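Per the labels, 250 ng of total liver RNA was amplified and biotin-labelled by the 3' IVT Express method and read on MG-430 PM strip arrays of Affymetrix. The deposited log2 values are RMA values (background subtraction, quantile normalization, probe set summaries) of each array. RMA, affy and limma are named in the submitters' processing notes, with no version and no genome build. Quantile normalization reduces any shift that most genes share.

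The table held 45141 probe sets, of which 28898 carried a single gene symbol, 551 several and 15588 none here, beside 104 controls. A dim limit at the 40th percentile of mean signal kept 12466 of 17097 genes. Genotypes were compared with limma 3.58.1 in R 4.3.3 (lmFit and eBayes, two-sided, no block) with p-values adjusted by Benjamini-Hochberg across every gene tested, and the test was checked on simulated data. The number of arrays limits precision. The text names every member and Nrg4, and of each other pathway list the 3 genes with the smallest p; other genes were named after their values were seen. The members and lists were chosen with earlier results of these data known. The RefSeq table (GRCm38.p6) gave names, chromosomes and promoter windows. Windows of 9 members were used, and Acaa2 was left out.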

Additional observations from a re-analysis of the deposited data

How the results depend on the processing

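No member of the 10 passed limma's test in any of the 16 alternatives, and their log2 changes kept their sign except for Acads and Hadhb. In several alternatives the sign could not turn. Another filter, a variance trend, a robust variance fit, the replicate block and every probe set on its own leave a main probe set's change as it was. Averaging probe sets also changes nothing for a gene with a single one. Acads stood at 0.012 with array weights and between -0.041 and 0.018 with single arrays left out. Hadhb lay between -0.068 and 0.014 with single arrays left out. Acaa2 kept its sign only barely, at -0.0002 after quantile normalization again. An unadjusted p under 0.05 was reached by Acadl with the mean of all probe sets and by Slc25a20 without knockout replicate 1. The median of the members lay between -0.038 and -0.0034 with single arrays left out.

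The number of all genes past the test, 5, was 8 after quantile normalization again, 3 with the filter at the 60th percentile, 29 with a variance trend, 50 with array weights, 3 with the mean of all probe sets, and 1 to 17 with single arrays left out (17 without knockout replicate 1). With the replicate number as a block it was 2. The labels do not say that the numbers pair the arrays. Same-numbered arrays had correlations of -0.15, 0.033 and -0.0090 of their deviations, and no knockout array correlated best with its own number. With 3 arrays per genotype these correlations depend on each other, so they cannot decide whether arrays of a number shared a preparation. The variance trend called Acot2 and Acot1 (adjusted p = 0.0387 and 0.0306), 1 gene in each of their lists. Array weights called Acot2, Acot1 and Acot3, and Esrrg, which is 1 further mitochondrial gene, 2 PPAR alpha targets and 1 regulator. The median of the further mitochondrial genes was -0.0005 with array weights and -0.0074 to 0.039 with single arrays left out, that of ketone body genes 0.0057 to 0.047 and that of PPAR alpha targets -0.20 to -0.13. The mean of all probe sets gave medians of -0.11 for PPAR alpha targets and 0.037 for regulators, and every probe set on its own 0.050 for regulators. The causes were not tested.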
